A study of Mus musculus with 4 samples.

Results

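The cells described here were Fn1 and Lgals3 expressing monocytes with few Clec4a transcripts, from a single-cell RNA-seq study of mouse bone marrow with and without the DNA demethylase Tet2. They were chosen by their own counts of unique molecular identifiers (UMIs, 1 per captured transcript) in the Lin-/CD11b+ sort, which held lineage-negative progenitors and CD11b+ myeloid cells. A cell was a member with at least 3 UMIs of Fn1 and of Lgals3, at most 1 UMI of Clec4a1 and Clec4a3 together, under 5% of its UMIs from S100a8 and S100a9, and under 10 UMIs of Mpo. The rule found 288 of the 4992 cells of the sort, among 8969 cells in all, and they are called Clec4a-low monocytes below.

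All mice were Tet2 fl/fl. The Tet2 KO mice also carried Mx1-Cre and the controls were their Mx1-Cre-negative littermates, and every mouse received 4 intraperitoneal doses of pI:pC at 12.5 ug/g. Mx1-Cre is switched on by interferon, which pI:pC induces, and is not restricted to one blood lineage, so Tet2 loss was not limited to monocytes. Each genotype had 1 library of the Lin-/CD11b+ sort and 1 of sorted granulocyte-monocyte progenitors (GMP) and dead cells had been gated out with 7-AAD. The names of the samples carry 1 mouse ID per genotype, so each genotype rests on 1 mouse as far as these names tell.

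The library of each cell was taken from the deposited cell table. A listing by the study gives the sizes of the control Lin-/CD11b+ and the Tet2 KO GMP libraries the other way round, so their contents were checked. Cells with 10 or more Mpo UMIs made 96.2% of the control and 98.6% of the Tet2 KO library named GMP, against 37.0% and 36.5% of those named Lin-/CD11b+. Cells with at least 5% of their UMIs from the neutrophil genes S100a8 and S100a9 made 0.0795% and 0.0368% of the GMP libraries and 8.21% and 6.16% of the Lin-/CD11b+ libraries. The library used here as control Lin-/CD11b+ thus held the cells of that sort and not those of a GMP sort, and its genotype rests on the cell table.

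With 1 library per genotype there was no replicate, and a difference between genotypes cannot be told apart from a difference between mice or libraries, so no test was made. Levels are UMIs summed over the cells of a library over their total UMIs (CPM, counts scaled to a total of 1000000), shares are shares of cells, and all intervals are exact at 95% and cover counting error only. In the Clec4a-low monocytes 1 UMI was worth 1.12 CPM in control and 0.537 CPM in Tet2 KO. A gene was counted as higher or lower when it passed 1.5-fold on the log2 scale of CPM plus 1, among genes with at least 20 UMIs.

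Monocytes arise in the bone marrow from progenitors that still divide and still transcribe the proteases of primary granules. As they mature they stop dividing, lose granule protease transcripts and gain lysozyme, lysosomal enzymes, chemokines and pattern recognition receptors. Classical monocytes carry Ly6c2 and the chemokine receptor Ccr2, through which they leave the marrow. Fn1 encodes fibronectin, a matrix protein made by monocytes, Lgals3 encodes the lectin galectin-3, and Clec4a1 and Clec4a3 encode C-type lectin receptors of the myeloid surface.

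The control library held 98 Clec4a-low monocytes among 1924 cells, a share of 5.09% (4.15 to 6.17). The Tet2 KO library held 190 among 3068 cells, a share of 6.19% (5.37 to 7.10), and the 2 intervals overlapped. No cell of the GMP libraries met the rule (0 of 1258 control cells, which by the limit of 3 counts allows a share of up to 0.238%, and 0 of 2719 Tet2 KO cells, up to 0.110%). The rule set this number closely at the Fn1 edge: 44 control and 54 Tet2 KO cells lay just outside with 2 Fn1 UMIs, and 25 and 45 members lay just inside with 3. On the Clec4a side 73 control and 115 Tet2 KO members had no Clec4a1 or Clec4a3 UMI, 25 and 75 had 1, and 16 and 41 cells with 2 lay outside. The Lgals3 threshold removed no cell once Fn1 was asked for.

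Depth was similar in both libraries. The median was 8818 UMIs per cell in control (5051 to 16333) and 9291 in Tet2 KO (5028 to 27119), below the 11326 and 10525 of the other cells of the sort. Mitochondrial transcripts made a median of 2.31% and 2.37% of UMIs, with 1 and 4 cells at 5% or more. The control and Tet2 KO libraries of the sort shared 7 cell barcodes, none of them a member's. Tet2 itself was at 21.3 CPM in control and 23.6 CPM in Tet2 KO members, which does not check the deletion, since 3′ UMIs still count a transcript that lacks an internal exon.

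The label was checked against its markers. Fn1, which the rule used, was at 581 and 593 CPM in control and Tet2 KO members, and Lgals3 at 2339 and 1985 CPM. The markers the rule did not use were also abundant: Lyz2, the lysozyme of myeloid cells, was at 12383 and 12197 CPM, the calcium-binding protein gene S100a4 at 1321 and 1722 CPM, and Ccr2 at 379 and 450 CPM. After each cell was thinned to 5000 UMIs, Ly6c2 was detected in 99.0% of control and 98.9% of Tet2 KO members, and Ccr2 in 76.5% and 86.3%. Csf1r, the receptor for the monocyte growth factor, was at 85.4 and 94.6 CPM. Markers of patrolling monocytes were mixed: Ace and Cd300e had no UMI and Treml4 had 0 and 1 UMI. Cx3cr1 had a mean of 0.765 UMIs per cell in control and 0.595 in Tet2 KO, and Spn of 0.837 and 0.842. The list of 16 patrolling genes summed to 412 and 443 CPM, above the 245 and 301 CPM of all other cells of the sort. The macrophage genes C1qa and C1qc had no UMI, and 7 of the 12 macrophage markers were at 0 in both libraries. The 12 summed to 36.0 and 50.5 CPM, against 22.5 and 24.1 CPM in all other cells of the sort. The megakaryocyte list summed to 0 and 1.07 CPM and the erythroid list to 46.1 and 2.69 CPM. The dendritic cell list summed to 424 and 1401 CPM, against 977 and 2180 CPM in all other cells of the sort. The B and plasma cell list summed to 1167 and 4536 CPM, against 65179 and 38997 CPM.

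Some members carried transcripts of other cells. With 3 or more UMIs of the defining genes of 1 other type as the limit, 8 of 98 control and 30 of 190 Tet2 KO members did so: 6 and 11 cells for B and plasma cells, 1 and 18 for T and NK cells, 1 and 2 for plasmacytoid dendritic cells, 0 and 2 for basophils and 1 and 0 for erythroid cells. The T and NK list holds Nkg7, and 90 control and 118 Tet2 KO Mpo+ progenitors also passed its limit. The defining genes included none of neutrophils or of dendritic cells other than plasmacytoid ones, so this limit could not find their transcripts. No doublet caller was run, and values that rest on these cells are given with and without them.

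Set beside their nearest neighbours, the Clec4a-low monocytes lay between progenitors and the Clec4a+ monocytes in the summed level of 28 of 37 gene lists in both libraries. Clec4a+ monocytes met the same rule but had 2 or more Clec4a1 and Clec4a3 UMIs (34 control and 134 Tet2 KO cells, median 7287.5 and 8199.5 UMIs). Mpo+ progenitors had at least 10 Mpo and 2 Ly86 UMIs, no Cebpe and under 5% S100a8 and S100a9 (255 and 291 cells, median 14410 and 14693 UMIs). Because the rule used some of these genes, these comparisons are descriptive. The count of 28 lists took any difference in level, however small, and has no value over all genes beside it. A summed level can rest on few genes of its list.

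**Figure D1:**
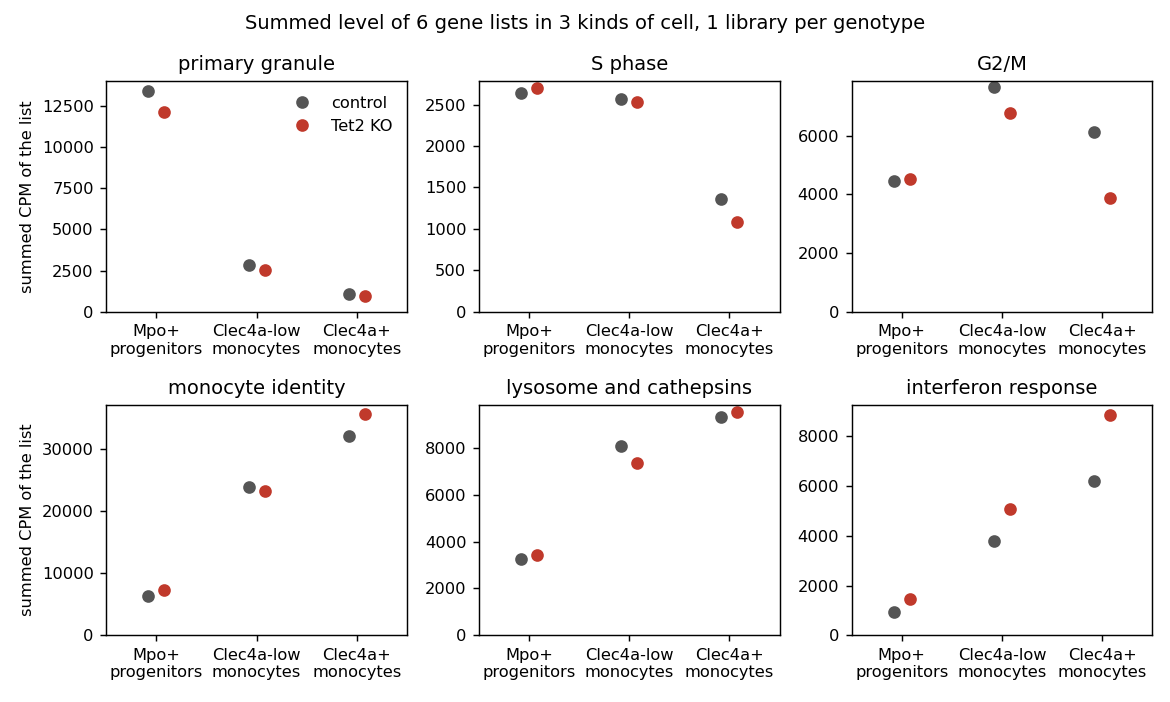
Summed CPM of 6 gene lists (y axis, from 0) in Mpo+ progenitors, Clec4a-low monocytes and Clec4a+ monocytes (x axis), with control in grey and Tet2 KO in red and 1 library per point. Primary granule genes were highest in Mpo+ progenitors, S phase genes were alike in Mpo+ progenitors and Clec4a-low monocytes, and monocyte and interferon response genes were highest in Clec4a+ monocytes.

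Primary granule genes were higher in Clec4a-low than in Clec4a+ monocytes. Of 4921 genes measured, 319 (6.48%) were at least 1.5-fold higher in both libraries, and 5 of the 7 measured primary granule genes were among them, with a median log2 ratio of 1.5 in control and 1.59 in Tet2 KO beside 0.11 and 0.073 over all genes. Ctsg, the protease cathepsin G, was at 592 against 178 CPM in control, a log2 ratio of 1.74 (1.32 to 2.18), and at 507 against 121 CPM in Tet2 KO, 2.07 (1.82 to 2.33). Prtn3, proteinase 3, was at 1418 against 464 CPM and at 1119 against 372 CPM. Elane, neutrophil elastase, was at 371 against 157 CPM and at 384 against 124 CPM. All of these were far lower than in Mpo+ progenitors, where Elane was at 3093 and 2638 CPM and Mpo, the myeloperoxidase the rule limits, at 2762 and 2400 CPM. Against Mpo+ progenitors 699 of 8325 genes (8.4%) were lower in both libraries, and 7 of 8 measured primary granule genes were.

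Genes of DNA replication made the next group. S phase genes were higher than in Clec4a+ monocytes in both libraries for 16 of 24 measured, and none was lower, with medians of 0.86 and 1.25. Their summed level was 2570 CPM in control and 2533 CPM in Tet2 KO members, against 1356 and 1082 CPM in Clec4a+ monocytes and 2635 and 2703 CPM in Mpo+ progenitors. Thinned to 5000 UMIs, 52.0% of control and 52.1% of Tet2 KO members held 10 or more S phase UMIs (68.4% and 69.5% before thinning), beside 20.6% and 14.9% of Clec4a+ monocytes and 71.8% of Mpo+ progenitors in both libraries. The dUTPase gene Dut was at 276 against 95.6 CPM in control and 282 against 111 CPM in Tet2 KO, and the nucleotide synthesis genes Tyms, Tk1 and Rrm2 had log2 ratios of 1.01 to 1.41.

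Replication genes are known targets of E2F factors, and the promoters of 4 of the 6 that carried an E2F motif are shown. The 150 bases before the RefSeq transcript start are given (GRCm38.p6, the build of the files), and capitals mark TTTGGCGC, TTTCCCGC or TTTCGCGC on either strand, with matches that overlap joined. Over the 250 bases before the start, at least 1 of these motifs stood in 6 of 21 matched S phase genes (28.6%) and in 480 of 27025 genes (1.78%). They are, in order, at chr1:128359706-128359855 on the minus strand, chr8:75109359-75109508, chr19:38930840-38930989 and chr11:98908001-98908150 on the plus strand.
Mcm6: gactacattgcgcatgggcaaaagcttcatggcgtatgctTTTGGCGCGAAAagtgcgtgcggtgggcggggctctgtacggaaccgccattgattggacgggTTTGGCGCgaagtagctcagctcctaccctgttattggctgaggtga
Mcm5: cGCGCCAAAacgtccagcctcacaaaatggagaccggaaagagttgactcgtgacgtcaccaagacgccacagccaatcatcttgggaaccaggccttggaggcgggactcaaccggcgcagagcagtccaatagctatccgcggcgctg
Hells: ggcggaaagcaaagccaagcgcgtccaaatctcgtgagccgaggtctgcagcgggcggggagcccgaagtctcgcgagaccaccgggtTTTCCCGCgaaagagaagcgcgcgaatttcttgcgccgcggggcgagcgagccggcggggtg
Cdc6: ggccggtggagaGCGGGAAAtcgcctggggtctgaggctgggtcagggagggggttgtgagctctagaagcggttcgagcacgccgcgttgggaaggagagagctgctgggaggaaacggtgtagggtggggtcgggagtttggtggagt
A match is a description of the letters and not a shown site.

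Mcm6, a subunit of the replicative helicase, was at 126 CPM in control members against 34.1 CPM in Clec4a+ monocytes, a log2 ratio of 1.88 (0.95 to 2.98), and at 123 against 52.1 CPM in Tet2 KO, 1.23 (0.83 to 1.65). Mcm5, of the same helicase, was at 133 against 81.9 CPM and at 126 against 52.9 CPM. Hells, a chromatin remodeller of dividing cells, was at 70.8 against 23.9 CPM and at 76.3 against 26.1 CPM. Cdc6, which loads the helicase, was at 23.6 CPM in the members of both libraries and had 1 UMI in control and 7 UMIs in Tet2 KO Clec4a+ monocytes. Of the 6 S phase genes with a motif 5 were higher in both libraries, and of the 15 without 9 were.

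G2/M genes differed from Clec4a+ monocytes more in Tet2 KO (median log2 ratio 0.94) than in control (0.28), and 7 of 25 were at least 1.5-fold higher in both libraries. Mki67, the proliferation antigen, was at 188 against 174 CPM in control, where the interval of the log2 ratio (-0.35 to 0.59) held 0, and at 179 against 63.9 CPM in Tet2 KO. The members themselves were alike at 188 and 179 CPM, so the 2 libraries differed in their Clec4a+ monocytes. The summed level in members, 7666 and 6753 CPM, was above that of Mpo+ progenitors, 4446 and 4535 CPM, and 7 of 25 genes were higher in members than in those progenitors in both libraries. Hmgb2, with a mean of 37.1 UMIs per cell in control and 36.6 in Tet2 KO, made most of the sum in members.

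Some mature monocyte genes were lower than in Clec4a+ monocytes. Of all genes, 204 of 4921 (4.15%) were lower in both libraries, and these included 5 of 18 measured monocyte identity genes, 7 of 12 interferon response genes, 4 of 13 Fc and scavenger receptors, 4 of 9 chemokines and cytokines and 6 of 17 immediate early genes. Lyz2 was at 12383 against 20217 CPM in control and at 12197 against 22867 CPM in Tet2 KO. Apoe, the lipid carrier of macrophages, was at 131 against 785 CPM and at 243 against 1733 CPM. Chil3, a chitinase-like protein of myeloid cells, was at 509 against 1991 CPM and at 1004 against 2288 CPM, and the chemokine gene Ccl6 at 294 against 990 CPM and 292 against 714 CPM. Ly6c2 went the other way, at 3594 and 3239 CPM in members and 2762 and 2255 CPM in Clec4a+ monocytes. No measured MHC class II gene of 6 differed in both libraries.

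Monocyte identity, lysosome and interferon response genes were higher in the members than in Mpo+ progenitors. Of 8325 genes, 1004 (12.1%) were higher and 699 lower in both libraries. Scaling by TMM factors, which lower the log2 ratio of a gene's levels (a shift of -0.15 in control and -0.076 in Tet2 KO), gave 814 higher and 906 lower, and median of ratios size factors gave 806 and 905. On the unscaled CPM the higher genes included 14 of 18 monocyte identity genes, 18 of 23 lysosome and cathepsin genes, 13 of 19 adhesion, matrix and annexin genes, 12 of 13 interferon response genes and 12 of 18 immediate early genes. Lyz2 had log2 ratios of 3.61 (3.56 to 3.66) in control and 2.78 (2.74 to 2.82) in Tet2 KO, and S100a4 of 3.40 and 2.74. Crip1, a LIM domain protein, was at 7362 against 869 CPM in control and 6283 against 1240 CPM in Tet2 KO. Of 5 measured stem and early progenitor markers 3 were lower in both libraries and none higher, and of the 4 measured Hox genes and Meis1 2 were lower and 1 higher. The stem and progenitor antigen gene Cd34 had log2 ratios of -2.38 and -2.60, and the transcription factor gene Sox4 of -2.60 and -2.72. Cdk6, a cell cycle kinase and among the lowest of all genes, had -3.19 and -2.65.

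Against all other cells of the sort, 1041 of 11254 genes (9.25%) were higher in members in both libraries, and all 18 measured monocyte identity genes were among them. F13a1, a coagulation factor subunit made by monocytes, was at 624 and 661 CPM against 192 and 207 CPM, and the protease gene Ctsc at 290 and 477 CPM against 73.1 and 146 CPM. Lower in both libraries were 1301 genes (11.6%), led by the neutrophil granule genes Camp, at 25.8 and 30.6 CPM in members against 4358 and 2505 CPM, and Ngp, at 39.3 and 28.5 CPM against 3385 and 1957 CPM.

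Primary granule genes stepped down with the Clec4a count of the cells, also inside the rule. S phase genes went down as well, with some steps inside counting error, and other programs were less ordered. From cells with 0 to cells with 1, 2 and 3 or more Clec4a1 and Clec4a3 UMIs, primary granule genes summed to 2977, 2251, 1641 and 504 CPM in control and to 2698, 2237, 1476 and 736 CPM in Tet2 KO. The S phase list was at 2715, 2092, 2007 and 672 CPM in control and at 2568, 2474, 1642 and 870 CPM in Tet2 KO. Its intervals at 0 and 1 UMIs overlapped in Tet2 KO (2477 to 2662 and 2359 to 2594). Those at 1 and 2 UMIs overlapped in control (1900 to 2299 and 1787 to 2247). The G2/M list showed no such order below 3 UMIs, at 7777, 7300 and 8950 CPM in control and 7295, 5848 and 6448 CPM in Tet2 KO, and was lowest with 3 or more, at 3183 and 2915 CPM. Interferon response genes were at 3462, 4880, 4555 and 7948 CPM in control, where the third step was below the second, and went up at each step in Tet2 KO, at 4740, 5687, 7772 and 9282 CPM. Apoe was likewise at 32.2, 459, 267 and 1329 CPM in control and at 163, 376, 913 and 2044 CPM in Tet2 KO. In members Ifitm3, with a mean of 24.1 UMIs per cell in control and 31.9 in Tet2 KO, made most of the interferon response sum. Deeper cells are more likely to show a Clec4a UMI. Median depth was 8818 and 9291 UMIs in members and 7287.5 and 8199.5 in Clec4a+ monocytes, and the part of depth in this order was not tested.

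**Figure D2:**
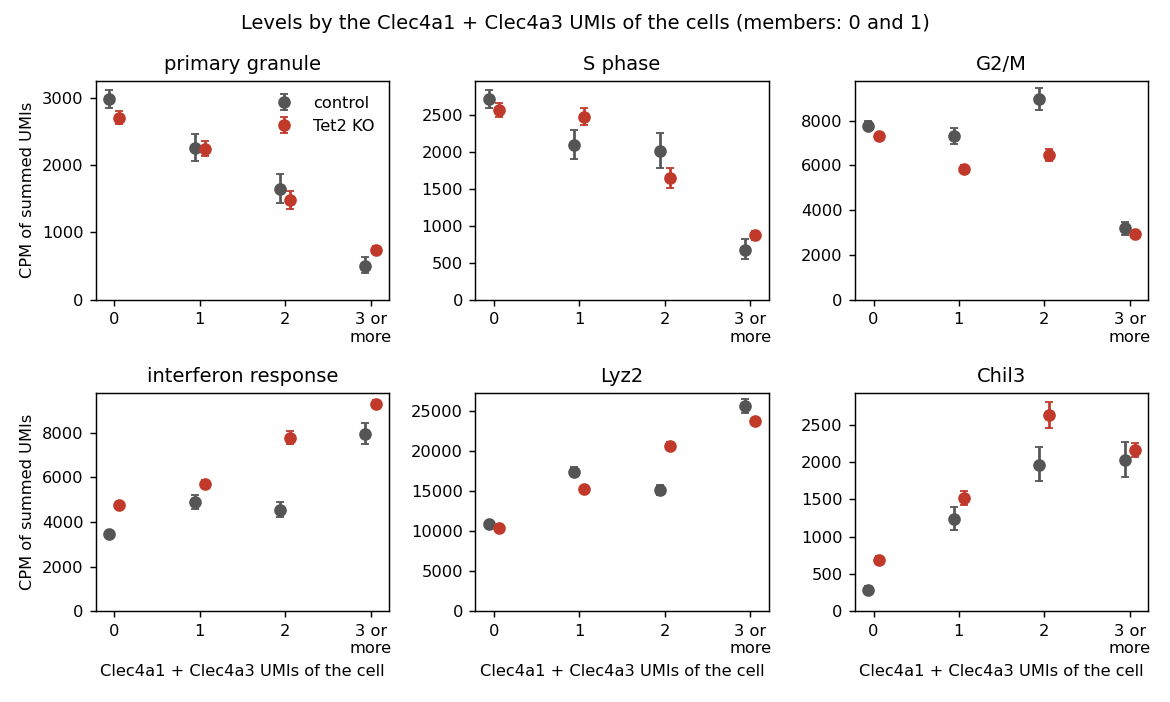
CPM with 95% counting intervals (y axis, from 0) of 4 gene lists and 2 genes in cells that met the rest of the rule, by the Clec4a1 and Clec4a3 UMIs of the cell (x axis), control in grey and Tet2 KO in red. Members have 0 or 1. Primary granule and S phase genes stepped down and Lyz2 and Chil3 were lowest at 0 in both libraries.

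The members also differed among themselves along this axis. Over cells, the interferon response and primary granule shares had a Spearman rho of -0.53 in control (n = 98 cells) and -0.65 in Tet2 KO (n = 190 cells), and the monocyte identity and lysosome shares one of 0.63 and 0.72. The monocyte identity and lysosome lists share Ctss, Psap and Cd68, so a positive rho between them was partly built in. The interferon response share rested mostly on Ifitm3. Primary granule and Ly6c2 levels went together, with 0.46 and 0.57. Cells of a library share its depth and free RNA, so these are descriptions. Among the 20 genes of largest excess spread over cells in both libraries were H2-Eb1, H2-Aa and Cd74 of MHC class II presentation, Apoe, S100a8 and S100a9, Chil3, and the mitosis genes Ube2c, Cenpf, Ccnb1 and Cdc20.

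Transcripts of the MHC class II genes Cd74 and H2-Aa came mostly from few cells, and those cells differed in other genes. Cd74, the invariant chain of MHC class II, was absent from 78 of 98 control and 112 of 190 Tet2 KO members, while 5 control and 27 Tet2 KO cells had 10 or more UMIs and those 27 gave 93.1% of the Tet2 KO Cd74 UMIs. This limit was chosen after the values were seen. Of the 5 control cells 4 carried 3 or more UMIs of another cell type, 3 of the 5 held the B cell gene Cd79a, 3 held Ms4a1 and 2 held both. Of the 27 Tet2 KO cells 6 carried such UMIs and 4 held both B cell genes.

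**Figure D3:**
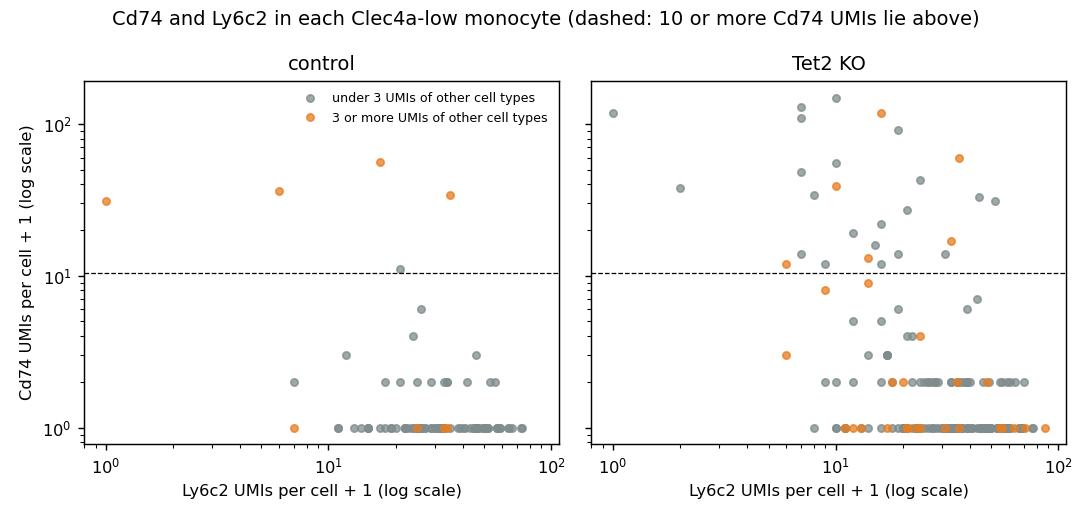
UMIs plus 1 of Cd74 (y axis) and Ly6c2 (x axis), both on log scales, in each Clec4a-low monocyte of control (left) and Tet2 KO (right). Orange points have 3 or more UMIs of another cell type, and the dashed line parts the 5 control and 27 Tet2 KO cells with 10 or more Cd74 UMIs from the rest.

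In Tet2 KO the 27 cells had less Ly6c2, 1601 against 3512 CPM in the other 163 members, and less Prtn3, 354 against 1246 CPM. They held H2-Aa at 1616 against 8.78 CPM, with a UMI in 26 of 27 cells. Genes of the dendritic cell list were found in part of them: Flt3, a cytokine receptor of dendritic cells and progenitors, in 13 of 27 cells against 10 of 163, Cd209a in 7 against 4, and the transcription factor gene Batf3 in 4 against 6. Id2, which dendritic cells need, was at 331 against 131 CPM. Zbtb46 had no UMI in the 27 cells and Xcr1 had 1. Fn1 was alike, at 539 and 603 CPM, and so was Lyz2, at 11424 and 12326 CPM. The rule asked every member for Fn1, so of Fn1 and Lyz2 only Lyz2 bears on the monocyte label. Csf1r was at 121 against 90.3 CPM and Klf4 at 181 against 154 CPM, while Ly6c2 went the other way. These values do not settle the label of the 27 cells.

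The comparison of genotypes addresses how Tet2 loss in the blood system goes with expression in these monocytes. Of 7307 genes with at least 20 UMIs, 831 (11.4%) were at least 1.5-fold higher in Tet2 KO and 493 (6.75%) were lower, and the median log2 ratio over all genes was 0.018. Without the members that had 10 or more Cd74 UMIs or UMIs of other cell types, which left 89 control and 139 Tet2 KO cells, 659 of 6549 genes were higher and 540 lower.

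**Figure D4:**
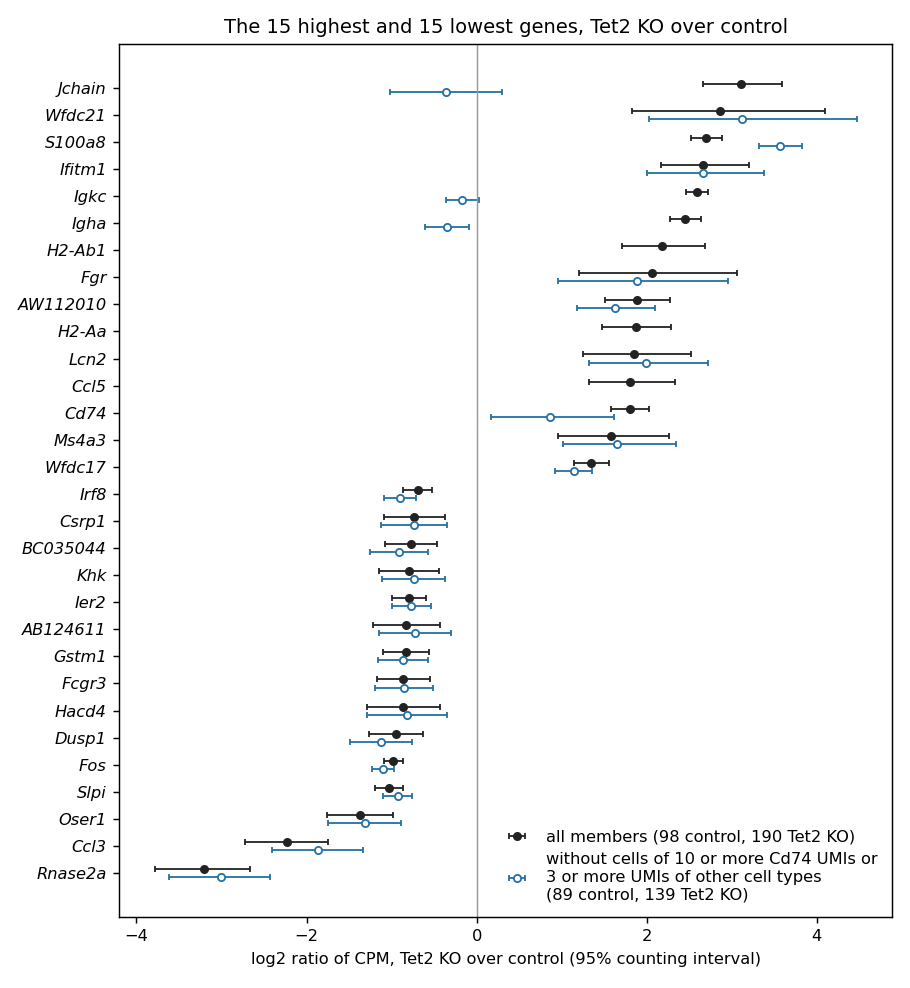
Log2 ratio of CPM, Tet2 KO over control (x axis), with 95% counting intervals, for the 15 highest and 15 lowest genes (y axis). Filled points are all members and open points leave out cells with 10 or more Cd74 UMIs or UMIs of other cell types, and H2-Ab1, H2-Aa and Ccl5 have no open point because fewer than 20 UMIs were left. The immunoglobulin genes moved to 0 or below and S100a8, Ifitm1, Fos and Rnase2a kept their direction.

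The immunoglobulin genes at the top of the list rested on a few cells. Igkc, the kappa light chain, was at 622 CPM in control and 3744 CPM in Tet2 KO, and 3 Tet2 KO cells held 87.5% of its UMIs. Without cells with UMIs of other types it was at 468 and 421 CPM, and it was then present in 89 of 90 control and 155 of 160 Tet2 KO cells. Jchain, of secreted IgA and IgM, was at 48.3 and 417 CPM, with 90.1% of the Tet2 KO UMIs in 3 cells. Ccl5, a chemokine abundant in T and NK cells, was at 43.8 and 153 CPM, and 273 of its 285 Tet2 KO UMIs lay in the 30 cells with UMIs of other types.

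Of the 10 measured neutrophil markers 4 were higher in Tet2 KO and 2 lower, and of 5 measured acute phase and alternative activation genes 4 were higher and none lower. S100a8, an alarmin of neutrophils and monocytes, was at 293 CPM in control and 1906 CPM in Tet2 KO, a log2 ratio of 2.70 (2.52 to 2.89), and the rule itself limits it to a low share. At least 10 S100a8 UMIs were found in 2 of 98 control cells (2.04%, 0.248 to 7.18) and in 48 of 190 Tet2 KO cells (25.3%, 19.3 to 32.1), which held 91.9% of its Tet2 KO UMIs, while the medians were 1 and 2 UMIs per cell. The same ratio in Mpo+ progenitors was 2.70 (2.55 to 2.84) and in Clec4a+ monocytes 1.76 (1.60 to 1.92). Single cells weighed on both ratios. In control, 1 Clec4a+ monocyte held 280 of 344 S100a8 UMIs, where the median was 1 per cell. Among Tet2 KO Mpo+ progenitors 1 cell held 620 of 3246, where the median was 2. Both control members with at least 10 S100a8 UMIs carried UMIs of other cell types. Without the members that did, S100a8 was at 172 CPM in control and 2165 CPM in Tet2 KO. That limit included no neutrophil genes, so members with neutrophil transcripts could remain. Wfdc17, a secreted inhibitor of myeloid cells, was at 275 and 700 CPM, with 10 or more UMIs in 4 and 49 cells. Lcn2, the iron-chelating lipocalin of granules, was at 28.1 and 102 CPM, Wfdc21 at 8.99 and 65.0 CPM, and Chil3 at 509 and 1004 CPM.

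Neutrophil granule genes did not share a direction. Of the 10 measured secondary and tertiary granule genes 4 were higher and 2 lower, with a median of 0.14: Ltf was at 12.4 and 5.91 CPM, Camp at 25.8 and 30.6 CPM, and Ngp at 39.3 and 28.5 CPM. The 12 neutrophil markers summed to 644 CPM in control and 2549 CPM in Tet2 KO, and S100a8 and S100a9 made most of that sum. In Tet2 KO, 33 cells had both 10 or more S100a8 and 10 or more Chil3 UMIs, which is 68.8% of the 48 and 55% of the 60 cells. Of the 48 cells 4 were among the Cd74 cells, which were 27 of all 190 Tet2 KO members. Ms4a3, a gene of granulocyte-monocyte progenitors, was at 27.0 and 80.6 CPM. Of the 48 cells 17 had 5 or more Elane UMIs, as had 53 of all 190 Tet2 KO members.

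Interferon response genes were higher in Tet2 KO in 11 of 20 measured and lower in none, with a median log2 ratio of 0.69. Irf7, the transcription factor that amplifies the response, had 6 UMIs in control and 68 in Tet2 KO, a log2 ratio of 2.44 (1.24 to 3.93). Ifi27l2a, an interferon-induced gene, was at 521 and 1024 CPM, 0.97 (0.83 to 1.12), with medians of 2 and 6 UMIs per cell. Zbp1, a sensor of nucleic acid, was at 40.4 and 70.4 CPM. Bst2, which tethers viruses to cells, was at 227 and 195 CPM. Without the Cd74 cells and those with UMIs of other types, 4 of 14 were higher and 1 lower with a median of 0.31, where Ifi27l2a was at 526 and 943 CPM and Irf7 had 6 and 33 UMIs. Ifi27l2a and Irf7 were thus higher in Tet2 KO in both sets of cells.

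Interferon-induced GTPases, which attack the vacuoles of pathogens, were higher in 3 of 4 measured and kept that count in the reduced set of cells. Irgm1 was at 13.5 and 30.1 CPM and Gbp2 at 8.99 and 19.3 CPM. Their promoters are shown with that of Isg15, a ubiquitin-like interferon-induced gene, because interferon acts through an element whose core, GAAA followed by any 2 bases and GAAA again on either strand, is marked in capitals, with matches that overlap joined. It stood in the window searched in all 10 matched GTPases, in 13 of 24 matched interferon response genes (54.2%), in 0 of 8 matched MHC class II genes and in 936 of 27025 genes (3.46%). The 150 bases before the RefSeq start lie at chr11:48871421-48871570 on the minus strand, chr3:142620513-142620662 on the plus strand and chr4:156200819-156200968 on the minus strand (GRCm38.p6).
Irgm1: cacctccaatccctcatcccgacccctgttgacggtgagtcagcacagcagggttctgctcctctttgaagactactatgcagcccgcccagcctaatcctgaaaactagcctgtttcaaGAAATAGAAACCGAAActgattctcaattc
Gbp2: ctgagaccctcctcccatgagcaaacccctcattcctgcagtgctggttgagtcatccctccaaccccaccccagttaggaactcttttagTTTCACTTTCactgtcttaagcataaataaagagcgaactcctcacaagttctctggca
Isg15: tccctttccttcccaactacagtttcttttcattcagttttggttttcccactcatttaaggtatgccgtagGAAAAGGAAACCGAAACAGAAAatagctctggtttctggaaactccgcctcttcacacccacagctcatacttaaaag
Of the interferon response genes with the element 3 of 7 measured were higher in Tet2 KO, and of those without 3 of 7. Isg15 was at 18.0 and 32.2 CPM with an interval of 0.03 to 1.74.

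The Ifitm and Ifi200 families, also induced by interferon, went less one way. Of 4 measured Ifitm genes 1 was higher and 1 lower, and of 7 measured Ifi200 genes 2 were higher and none lower, with a median of 0.16 for the latter. In the reduced set of cells none of 6 Ifi200 genes passed 1.5-fold. Ifitm6 was the lower one, at 416 and 269 CPM, a log2 ratio of -0.63 (-0.82 to -0.43). Ifitm1, which hinders viral entry, was at 39.3 and 249 CPM, a log2 ratio of 2.67 (2.17 to 3.20), with 5 or more UMIs in 2 control and 35 Tet2 KO cells. Without the Cd74 cells and those with UMIs of other types it was at 26.2 and 165 CPM, 2.65 (2.01 to 3.38), and its ratio in Mpo+ progenitors was 1.22 (1.09 to 1.34). Of the Ms4a family, membrane proteins encoded in 1 cluster, 5 of 8 were higher and none lower: Ms4a4c was at 179 and 333 CPM and Ms4a6d at 30.3 and 87.1 CPM, beside Ms4a6c at 994 and 1034 CPM. In the reduced set Ms4a6d was at 32.4 and 84.3 CPM.

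MHC class II genes were higher in 5 of 8 measured and lower in none, and this count rested largely on the Cd74 cells. Without those cells 2 of 6 measured were higher and 1 lower. H2-Ab1 was at 44.9 and 203 CPM, H2-Aa at 65.2 and 238 CPM, H2-Eb1 at 56.2 and 152 CPM and Cd74 at 209 and 728 CPM. H2-DMa, which loads peptides on MHC class II, was alike at 271 and 279 CPM. When only the cells with UMIs of other types were left out, Cd74 was at 40.6 CPM in 90 control cells and 702 CPM in 160 Tet2 KO cells, and H2-Aa had 6 and 351 UMIs. When the Cd74 cells were left out as well, Cd74 had 23 and 70 UMIs, 28.7 and 52.2 CPM. The control library thus held 1 cell with 10 or more Cd74 UMIs and without UMIs of other types among 90, and the Tet2 KO library 21 among 160.

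Immediate early genes, which stimulation and also tissue handling switch on within minutes, were lower in Tet2 KO. Of 18 measured 6 were lower and none higher, with a median log2 ratio of -0.47 and a summed level of 3723 CPM in control and 2356 CPM in Tet2 KO. Fos, a subunit of the AP-1 factor, was at 1328 and 673 CPM, -0.98 (-1.10 to -0.86), with medians of 10 and 5 UMIs per cell and 10 or more UMIs in 53 of 98 and 47 of 190 cells. Dusp1, a phosphatase of MAP kinases, was at 178 and 91.9 CPM, Ier2 at 412 and 238 CPM and Atf3 at 19.1 and 5.37 CPM. Jun was at 502 and 349 CPM, short of 1.5-fold. The Fos ratio was -0.94 (-1.04 to -0.85) in Mpo+ progenitors and -1.22 (-1.37 to -1.06) in Clec4a+ monocytes of the same libraries, so it was not limited to the Clec4a-low cells. In the reduced set 8 of 18 genes were lower and 1 higher.

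**Figure D5:**
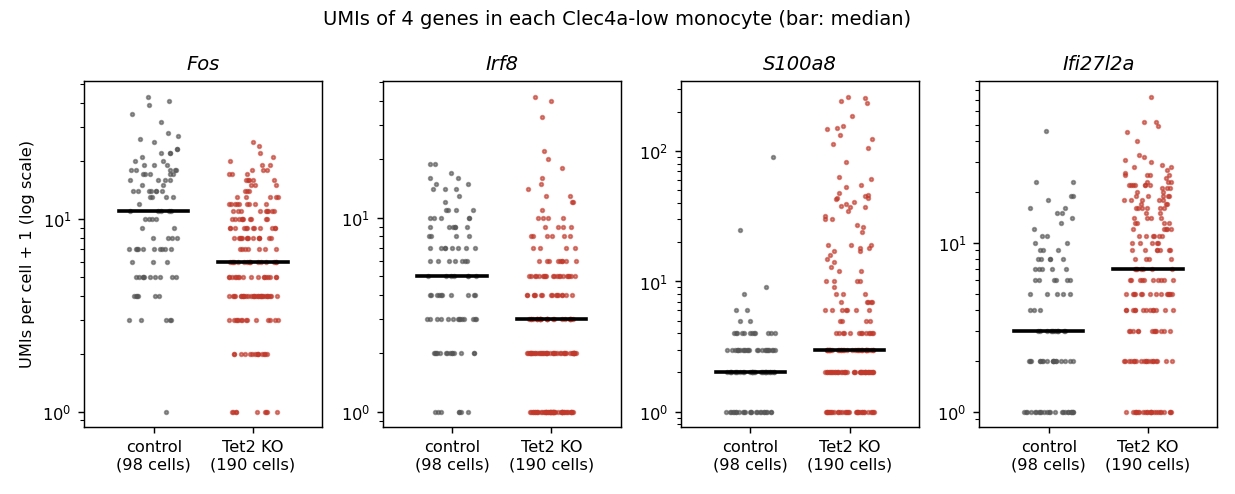
UMIs plus 1 per cell on a log scale (y axis) of Fos, Irf8, S100a8 and Ifi27l2a in each Clec4a-low monocyte, control in grey and Tet2 KO in red (x axis), with the median as a bar. The medians of Fos and Irf8 were lower in Tet2 KO, that of Ifi27l2a was higher, and S100a8 differed mainly by the cells with 10 or more UMIs.

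Chemokine and cytokine genes went both ways, with 4 of 12 measured lower and 3 higher and a median of -0.14. The lower 4 were Ccl3, Ccl4, Ccl2 and Osm. Ccl3 was at 134 and 28.5 CPM, a log2 ratio of -2.23 (-2.73 to -1.75), Ccl4 at 24.7 and 2.69 CPM and Ccl2 at 36.0 and 12.9 CPM, and Osm, a cytokine of the IL-6 family, was at 23.6 and 6.99 CPM. The higher genes included Cxcl10, an interferon-induced chemokine, with 2 and 32 UMIs, and Ccl5. The Ccl5 ratio rested on cells with UMIs of other types and was at -1.31 without them. When the Cd74 cells were left out, 4 of 11 measured genes of the list were lower and 2 higher, with a median of -0.34. Ccl6 and Ccl9, chemokines of resting myeloid cells, were alike at 294 and 292 CPM and at 419 and 348 CPM.

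Among transcription factor genes Irf8, which drives the monocyte and dendritic cell lineages, was lower in Tet2 KO, at 580 and 358 CPM, a log2 ratio of -0.70 (-0.86 to -0.53). The medians were 4 and 2 UMIs per cell. In the reduced set it was at 607 and 324 CPM, -0.90 (-1.09 to -0.71). Spi1, which encodes the myeloid factor PU.1, was at 357 and 391 CPM, and Klf4, which monocytes need, at 194 and 157 CPM. Id2 was at 84.3 and 160 CPM, and at 78.5 and 103 CPM in the reduced set, where its interval (-0.05 to 0.84) held 0. Cebpb, linked to inflamed and Ly6c-low monocytes, was at 29.2 and 52.1 CPM.

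The lowest gene in Tet2 KO was Rnase2a, an RNase of granules, at 169 and 18.3 CPM, a log2 ratio of -3.20 (-3.79 to -2.66), with 2 or more UMIs in 36 of 98 control and 5 of 190 Tet2 KO cells. It was also lower in Mpo+ progenitors, -1.80 (-2.47 to -1.17), and in Clec4a+ monocytes, -3.07 (-4.04 to -2.15). Ctse, an aspartic protease, had 33 UMIs in 25 control cells and 1 UMI in Tet2 KO. Slpi, a secreted inhibitor of elastase, was at 680 and 333 CPM, and Fcgr3, an activating Fc receptor, at 188 and 103 CPM.

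Several programs had few genes past 1.5-fold between the libraries. Monocyte identity genes had a median log2 ratio of 0.055, with 1 of 18 higher and 2 lower, and Ly6c2 had a median of 30 UMIs per cell in both. Of 25 S phase genes 1 was higher and 1 lower, and of 25 G2/M genes none was higher and 2 were lower, with a median of -0.27. Primary granule genes were higher in 2 of 7 and lower in none, with Elane at 371 and 384 CPM and Prtn3 at 1418 and 1119 CPM. None of 19 glycolysis and pentose phosphate genes and none of 6 NADPH oxidase genes passed 1.5-fold either way. Of 24 lysosome and cathepsin genes 1 was higher, Ctsc at 290 and 477 CPM, and 2 were lower, Ctse and Lipa.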

How the data were processed

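UMI counts per gene and cell were deposited by the authors as 1 matrix of raw counts with a cell table; per the submitters' processing notes they came from Cell Ranger 3.1.0 and Seurat on mm10. The methods state cells of at least 5000 UMIs and under 5% mitochondrial reads, a limit that 1 control and 4 Tet2 KO members reach or pass. The deposited values are whole numbers, not normalised. The matrix sums matched the cell table in all 8969 cells. The libraries held 22681380 (control) and 34024599 (Tet2 KO) UMIs in the Lin-/CD11b+ sort.

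Members were found on raw UMIs. UMIs were summed per library and compared as CPM with Python 3.11.15 (numpy 2.4.6, scipy 1.17.1, pandas 2.3.3), with exact Poisson, binomial and conditional binomial intervals. No model was fitted and no p given, since each group had 1 library. TMM factors came from edgeR 4.0.16 in R 4.3.3. Thinning drew 5000 UMIs per cell without replacement. Scripts were tested on simulated data.

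The genes named were the rule genes and markers, the 15 highest and 15 lowest of each comparison on CPM plus 10 among genes with at least 100 UMIs, the 20 of largest excess spread, and list genes. Members and lists were chosen with earlier results of these data known, and the Cd74 limit after its values were seen. Alternatives covered scaling, filter, offset, each limit of the rule and subsets of cells.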

Additional observations from a re-analysis of the deposited data

Results flagged for a closer look

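Igkc, Igha and Jchain were higher in Tet2 KO than in control among the Clec4a-low monocytes and lower in Tet2 KO among other cells of the same libraries. In the Clec4a-low monocytes the log2 ratios were 2.59 for Igkc, 2.45 for Igha and 3.11 for Jchain. In the Mpo+ progenitors they were -2.04, -1.79 and -2.24. In the Clec4a+ monocytes Igkc was at -2.55 and Igha at -0.79. These ratios rested on a few cells in each of the groups. In control the 3 cells with most Igkc UMIs held 94.4% of them in Mpo+ progenitors and 99.1% in Clec4a+ monocytes, as against 87.5% in the Tet2 KO Clec4a-low monocytes, while the medians were 4 to 6 Igkc UMIs per cell throughout. For Igha the 3 cells held 87.8% and 98.0% in those control cells, and for Jchain 79.3% and 99.2%. The difference between these cells was not tested, since each genotype had 1 library.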

How the results depend on the processing

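No paired analysis was possible because each group had 1 library and all libraries carry the same replicate number. Of 592 genotype ratios of named genes over the alternatives, 500 moved by less than their counting error, 80 by more, and 12 that had passed 1.5-fold changed sign. Of 576 list medians 408 moved by less than their counting error, and none that had passed 1.5-fold changed sign. Scaling by TMM, by median of ratios or by cell moved no count of genes by over 1.5 times. With no filter on low counts 2913 genes were higher and 1740 lower in Tet2 KO, 1077 higher and 692 lower than in Clec4a+ monocytes, and 1523 higher and 1122 lower than in Mpo+ progenitors. With CPM plus 10 the counts were 292 and 159 in Tet2 KO, 197 higher than in Clec4a+ monocytes, and 605 and 351 against Mpo+ progenitors, because few-UMI genes then count less.

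The share of members followed the rule: 7.38% in control and 7.95% in Tet2 KO with Fn1 and Lgals3 of 2 or more, 2.18% and 3.52% with 5 or more, 3.79% and 3.75% with no Clec4a UMI, and 2.96% and 4.11% on thinned cells. In Tet2 KO it was 5.28% with Mpo under 3, 5.22% without UMIs of other cell types, 5.31% without the Cd74 cells and 4.53% without both. With Fn1 and Lgals3 of 5 or more, 186 genes were higher and 113 lower than in Clec4a+ monocytes, from fewer cells.

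Tet2 KO over control, Jchain, Igkc and Igha were at -0.12, -0.29 and -0.23 with Fn1 and Lgals3 of 2 or more, at -0.29, -0.15 and -0.35 without UMIs of other cell types, where Ccl5 was at -1.31, and at -0.36, -0.17 and -0.35 without both sets of cells, where Ccl5 was at -1.003 and H2-Aa at -0.63. Over Clec4a+ monocytes, with Fn1 and Lgals3 of 5 or more, Ighm and Igkc in Tet2 KO were at 0.065 and 0.30 and S100a9 and S100a8 in control at 1.39 and 0.90. With S100a8 and S100a9 under 1%, S100a9 in control was at 0.35. On thinned cells Jchain, Igha and Igkc in Tet2 KO were at 3.98, 4.02 and 4.08, and S100a9 and S100a8 in control at 2.60 and 2.46. Cd74 over Mpo+ progenitors was at -0.038 in control and -0.88 in Tet2 KO without the Cd74 cells, and at -1.05 in Tet2 KO without both. Among control Clec4a+ monocytes the highest count of 1 cell was 280 of 344 S100a8 UMIs and 129 of 150 S100a9 UMIs. The cause was not tested for those not explained by the cells left out.

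The depth limits genes of few UMIs: in 98 control members a gene needs 3 UMIs to reach 3.37 CPM. With 1 library per genotype, differences between mice or libraries cannot be told apart from genotype.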
